A study of Mus musculus with 4 samples.

Results

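Binding of the RNA helicase MOV10 was examined in the transcripts of 10 genes of the Hippo pathway, Tead1, Tead2, Tead3, Tead4, Yap1, Wwtr1, Lats1, Lats2, Amotl1 and Amotl2. Peaks were taken as belonging to these genes when their midpoint lay inside the gene span annotated by RefSeq on GRCm38. By this rule 72 of the 12236 peaks of the study belonged to them, 68 in Tead1 and 4 in Lats1, and the other 8 genes held 0. The genes were selected on measured values, the number and enrichment of the Tead1 peaks in this same list, so the numbers below describe them and no test was made.

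The study used eCLIP in N2A, a mouse neuroblastoma cell line grown in medium with serum, with no other treatment and no genetic change named in the labels. In eCLIP, a protein is crosslinked to RNA by ultraviolet light and precipitated, and the RNA fragments that come with it are sequenced beside an input library. The groups were 2 libraries precipitated with an antibody to endogenous MOV10 (MOV10 eCLIP) and 2 input libraries (MOV10 Input). Whether replicates were separate cultures is not stated in the labels. Each peak has 1 position and 2 values of the authors'. They were read here, from the values themselves, as the log2 fold enrichment of precipitate over input and the −log10 p. How the 4 libraries were combined into them is not stated. The files used give no value per library and no read count. No standard deviation can therefore be attached to a peak, and the sequencing depth is unknown. The level of each transcript in these cells was likewise not measured here. A gene without a listed peak may thus be unbound, weakly bound below the lowest listed log2 fold enrichment of 3.001, or hardly expressed. Its peaks may also have fallen below the lowest listed −log10 p of 3.005, or been dropped at the reproducibility step named with the list. Of 14 markers of sympathetic neurons and neuroblastoma, 3 (Gata2, Ret and Stmn2) held peaks, 4 in all, beside 8.53% of all protein-coding genes. Peaks do not measure expression.

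The Hippo pathway restrains growth through a chain of kinases. The kinases STK3 and STK4 with their adaptors activate LATS1 and LATS2, which phosphorylate the coactivators YAP1 and TAZ (the product of Wwtr1) and keep them out of the nucleus. When the chain is off, YAP1 and TAZ enter the nucleus and bind the TEAD proteins, a family of DNA-binding factors that have little activity without them. Angiomotin proteins tether YAP1 at cell junctions and the cytoskeleton. In the developing nervous system, YAP1 and TEAD factors support the growth of neural progenitors.

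Among the 10 genes, the peaks were concentrated in Tead1. A peak was present in 2 of the 10 genes, against 8.53% of the 21900 protein-coding genes of the annotation counted in the same way (7.70% when peaks shared by overlapping genes are left out). The rule for choosing the genes drew on the peaks, so nothing is read from that difference. Of the 4 TEAD genes, Tead1 on chromosome 7 (112679356 to 112906784, 227429 nt) held 68 peaks, all on the plus strand. Tead2 on chromosome 7, Tead3 on chromosome 17 and Tead4 on chromosome 6 held 0 each. The coactivator genes Yap1 and Wwtr1 also held 0 each. Of the LATS kinase genes, Lats1 held 4 and Lats2 held 0. The angiomotin family genes Amotl1 and Amotl2 held 0 each. No further peak lay within 10 kb outside the span of any of the 10 genes, so a slightly longer gene model would have added none.

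The Tead1 peaks filled the 3′ end of the gene. The first began at 112891780 and the last ended at 112906360, a stretch of 14581 nt that is 6.41% of the span, and the preceding 212424 nt held none. Midpoints lay 426 to 14964 nt from the annotated 3′ end, with a median of 4066 nt. Of the 68 peaks, 47 had their midpoint no more than 5 kb from that end (69.1%). There were 21 (30.9%) inside the last 2 kb and 19 (27.9%) between 5 and 10 kb. The other 2 lay 12421 and 14964 nt away. They were the peaks with the lowest −log10 p of the gene, 4.47 and 5.55, and their log2 fold enrichment was 3.73 and 3.40. A gap of 4423 nt without a peak separated them from the rest. Which of these positions are exonic was not determined, because exon coordinates were not used here.

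The remaining 66 peaks formed a dense field at the end of the gene. From 112898840 to 112906360, a region of 7521 nt, peaks covered 3089 nt (41.1%). Peaks were narrow, 4 to 112 nt with a median of 41.5 nt, against a median of 74 nt in the whole list, and many touched their neighbours. When touching peaks were joined, Tead1 had 34 blocks, of which 15 held several peaks. The longest block held 8 peaks over 370 nt, from 112901918 to 112902287. The widest gaps inside the field were 709 nt, 615 nt and 487 nt, beginning 7870 nt, 3741 nt and 2542 nt from the 3′ end. Because listed peaks divide continuous regions, the number 68 is a count of listed segments and not of separate binding sites.

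Enrichment varied along the field, with a summit near 5 kb from the 3′ end and a trough between 1.4 and 1.8 kb. The 68 peaks had a median log2 fold enrichment of 4.78, or 27.5-fold on the linear scale, and the middle 50% lay between 4.36 and 5.24. The lowest was 3.22 and the highest 6.62, or 98.3-fold. The median of the whole list was 3.71, and 91.2% of all listed peaks lay below the Tead1 median. Values of 5 or more were found in 27 Tead1 peaks (39.7%), against 5.93% of the whole list.

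The summit lay 4.5 to 5.5 kb from the 3′ end. The 13 peaks there had a median log2 fold enrichment of 5.87 and a range of 4.86 to 6.62. The limits of this stretch and of those below were set with these same values in view. A peak 5503 nt from the end, with 4.19, lay just outside the summit. The strongest peak of the gene, at 112902055 to 112902082, had 6.62 with a −log10 p of 47.5. It belongs to the longest block, whose 8 peaks read from the upstream side had a log2 fold enrichment of 5.23, 5.70, 6.52, 6.62, 6.01, 5.87, 5.92 and 5.41. The values thus climbed and fell within 370 nt and stayed above 5 throughout. On its upstream side stood 2 more strong peaks, 6.34 at 112901798 to 112901897 and 6.58 at 112901393 to 112901456. The second of these, 5360 nt from the end, had a lower −log10 p of 24.0 although its enrichment was nearly that of the strongest peak.

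A second high stretch lay about 3 kb from the end. Its leading peak (112903883 to 112903919) reached 6.15 on the log2 scale and lay 2883 nt from the 3′ end, with neighbours at 5.94 and 5.78. Of the 6 Tead1 peaks with a value of 6 or more, this was the only one outside the summit. The 11 peaks between 2.5 and 4 kb ranged from 4.74 to 6.15.

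Downstream, enrichment dropped and then rose again. The 6 peaks between 1.4 and 1.8 kb from the end had 3.22 to 3.88, with a median of 3.46. The lowest Tead1 value, 3.22 at 112905222 to 112905230, was among them. Their −log10 p was 9.67 to 37.8 with a median of 26.8, close to the median of 26.5 over the gene. The trough was therefore one of fold enrichment, while the p-values of these peaks were typical of Tead1. Closer to the end, 13 peaks in the last 1.4 kb had 4.36 to 5.07. All of them lay above the 6 peaks of the trough, whose limits were set on these values. Upstream of the summit, the 7 peaks between 6 and 7 kb had a median of 4.56 and the 3 between 7 and 8 kb a median of 3.82. The fall was not even, since touching peaks 6317 and 6248 nt from the end reached 5.14 and 5.52. Their −log10 p was 50.1 and 53.0.

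**Figure D1:**
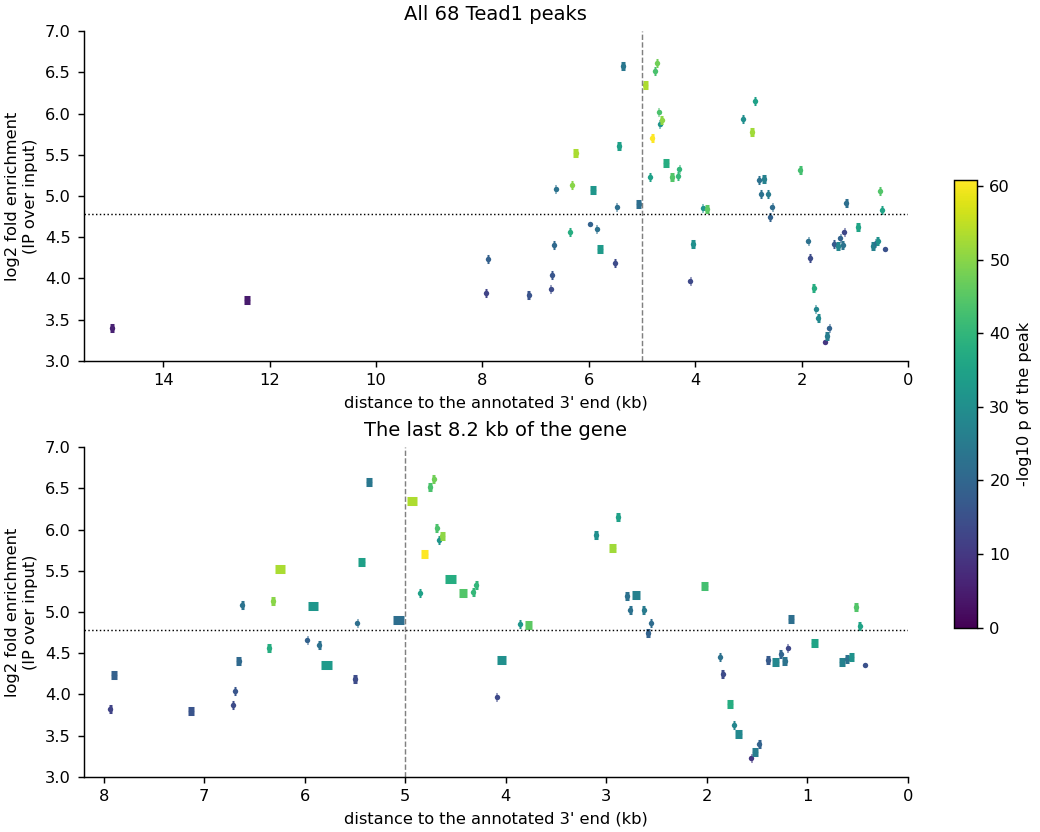
Log2 fold enrichment of MOV10 precipitate over input (vertical axis, starting at 3) of each Tead1 peak against its distance to the annotated 3′ end in kb, for all 68 peaks above and for the last 8.2 kb below. Each bar spans the width of a peak with a dot at its midpoint and is coloured by −log10 p. The dashed line marks 5 kb and the dotted line the median of 4.78. The highest value, 6.62, lies near 5 kb and the lowest, 3.22, between 1.4 and 1.8 kb.

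Strength by fold and strength by p-value ranked Tead1 differently among all coding genes. By number of peaks Tead1 had rank 4 of the 1868 coding genes with a peak, by joined blocks rank 3, and by covered length, 3276 nt, rank 6. By strongest peak it had rank 2, behind Elavl1 at 6.93 and ahead of Cbx5 at 6.48. No error is known for these values, so neighbours in that order cannot be separated. Of the 55 peaks in the whole list with a log2 fold enrichment of 6 or more, 6 were in Tead1, 10 in Elavl1 and 9 in Cbx5. By highest −log10 p, 60.8, Tead1 had rank 38. None of its peaks was at 400, the ceiling of that column, where the list holds 84. Tead1 was not alone in this. Nova2 had rank 4 by strongest peak and rank 51 by highest −log10 p, and Gna13 had ranks 6 and 61. The 2 ranks of Mib1, 7 and 23, were closer to each other. Elavl1, Cbx5 and Ago2 (rank 8 by strongest peak) did reach the ceiling.

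The 6 genes around Tead1 in the order by number of peaks differed from one another in −log10 p. Cbx5 (110 peaks), Ttyh3 (101), Elavl1 (78) and Tcf20 (65) each had a strongest −log10 p of 400, at the ceiling. The values of Hmbox1 (60 peaks) and Pabpc1 (60 peaks), 48.6 and 72.8, were on either side of that of Tead1. Cbx5 encodes a heterochromatin protein, Ttyh3 a membrane protein of the tweety family, Elavl1 the RNA-binding protein HuR, Tcf20 and Hmbox1 transcriptional regulators, while Pabpc1 codes for a protein that coats poly(A) tails. Among the 132 coding genes with at least 20 peaks, Tead1 had rank 10 by median log2 fold enrichment and rank 24 by median −log10 p, 26.5. Its median of 4.78 was above those of Ttyh3 (4.59), Hmbox1 (4.54) and Pabpc1 (4.14). It was below those of Cbx5 (5.24), Elavl1 (5.20) and Tcf20 (5.10). The p-value of a peak grows with read number as well as with enrichment, and read numbers were not known here.

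**Figure D2:**
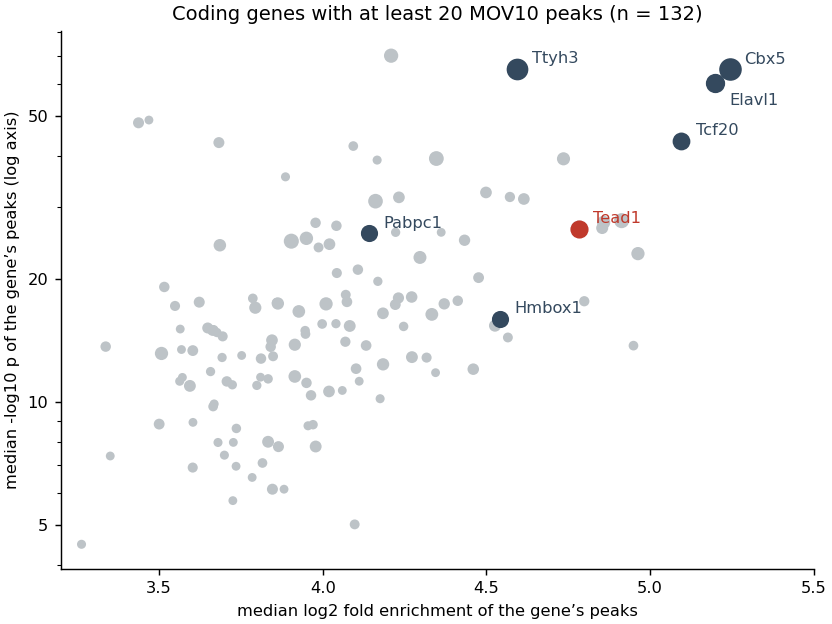
Median −log10 p (vertical, log axis) against median log2 fold enrichment (horizontal) of the peaks of each of the 132 coding genes with at least 20 peaks. Each point is a gene, its area grows with the number of peaks, and Tead1 (red) and its 6 neighbours in the order by number (dark) are named. Tead1 lies at 4.78 and 26.5, below Cbx5, Elavl1 and Tcf20 on both axes.

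Tead1 extended farther from the 3′ end than most heavily bound genes. Of the 126 coding genes of at least 15 kb with at least 20 peaks and a known direction, 59 had no peak beyond 5 kb from the 3′ end, and the median share inside that window was 96.4%. The Tead1 share was 69.1%, and 21 of the 126 genes had a lower one. The gene whose peaks were distributed most like those of Tead1, by the largest difference between their cumulative curves of distance to the 3′ end (the Kolmogorov-Smirnov distance, 0 for identical and 1 for separate distributions), was Tmod2 at 0.11. Tmod2 encodes tropomodulin 2, an actin-capping protein of neurons, and 27 of its 42 peaks lay within 5 kb. Cbx5 followed at 0.11, with 67 of 110. Next were Lpp, a LIM-domain gene of focal adhesions, at 0.14 with 16 of 25, and the kinase gene Braf at 0.16 with 21 of 30. Rc3h1, which encodes the RNA-binding protein roquin, was also at 0.16, with 15 of 20. The median distance over the 116 genes compared was 0.49. The 5 genes were picked for alike positions, and their strength differed. The median log2 fold enrichment was 5.24 in Cbx5, 4.33 in Tmod2, 4.10 in Lpp, 3.50 in Braf and 3.35 in Rc3h1.

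**Figure D3:**
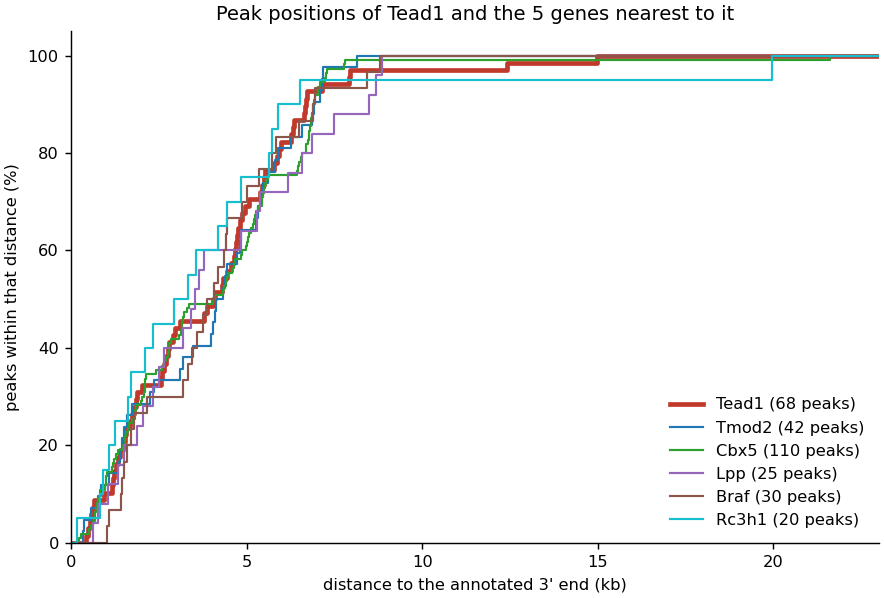
Share of peaks (vertical, percent) within a given distance of the annotated 3′ end (horizontal, kb) for Tead1 (thick red) and the 5 genes with the nearest distribution, with the number of peaks of each in the legend. Each curve holds most of its peaks within the first 8.2 kb, with flat stretches where a gene has no peak, and Tead1 reaches 69.1% at 5 kb.

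Lats1, the kinase gene, had a small group of peaks at its 3′ end. The gene lies on chromosome 10 (7681200 to 7716461, plus strand), and its 4 peaks formed 2 blocks of touching pairs, 1624 to 2317 nt from the 3′ end. The upstream pair had a log2 fold enrichment of 3.43 (7714112 to 7714177) and 4.10 (7714178 to 7714249), with −log10 p of 10.5 and 7.42. The downstream pair had 3.64 (7714717 to 7714753) and 3.26 (7714754 to 7714921), with −log10 p of 6.86 and 9.74. In each pair the higher fold thus went with the lower −log10 p. The highest value of Lats1, 4.10, lay below the Tead1 lower quartile of 4.36 and above 3.84, the median strongest peak over all coding genes with a peak. All 4 peaks together covered 343 nt. Lats2, its paralogue, held 0 peaks.

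Other genes of the pathway were examined by role, in 5 lists of 78 genes in all, compiled from general knowledge. Peaks were present in 17 of the 78 (21.8%), 152 in all, beside the same 8.53% of coding genes. The lists were drawn up with earlier results of these data known, and the expression of their genes in N2A cells was not measured, so this share is a description. Taking the strongest peak of each gene, the median over these 17 was 4.01 on the log2 scale, and over all coding genes with a peak it was 3.84. None of the 17 reached the strongest value of Tead1. In 15 of them, every peak was inside the last 5 kb. The same held for 1557 of the 1868 coding genes with a peak, so this position is common in the list. Those 1868 include genes shorter than 5 kb, such as Vamp2 (3854 nt), where no peak can lie farther away. The 17 are longer, the shortest being Mob4 at 23655 nt, so the comparison is not of like genes.

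Of 17 genes of the kinase core and of kinases that act on LATS, 5 held peaks (29.4%), beside 8.53% of all coding genes. Taok1, a kinase that activates STK3 and STK4, held 45 peaks on chromosome 11, the largest number after Tead1 among the pathway genes examined. Their log2 fold enrichment was 3.02 to 4.54 with a median of 3.51, against 4.78 in Tead1, while the covered length, 2922 nt, was near the 3276 nt of Tead1. They lay 357 to 7854 nt from the 3′ end, 22 of 45 within 5 kb. Stk4, a kinase of the core, held 12 peaks up to 4.10, all within 3238 nt of the end, while its paralogue Stk3 held 0. Map4k4 held 2 peaks up to 3.96, Map4k3 held 1 at 4.11 and Tnik held 1 at 3.45. The adaptor genes Sav1, Mob1a and Mob1b, and the paralogues Taok2 and Taok3, held 0. The 0 of Mob1a rests on the gene model, since 1 plus-strand peak with a log2 fold enrichment of 3.38 began 71 nt past the end of its span on chromosome 6 (83342883 to 83342997), in no annotated gene. For 3 other genes counted as 0, Taok3, Stk38 and Strip2, peaks lay within 10 kb outside the span, with midpoints in the neighbouring genes Pebp1, Kctd20 and Ahcyl2.

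Of 25 regulators at junctions, polarity complexes and the cell cortex, 4 held peaks (16%), beside 8.53% of all coding genes. Wwc2, a scaffold gene of the KIBRA family that promotes LATS activation, held 14. The strongest, 5.69 at 47827680 to 47827714 on chromosome 8, lay 1615 nt from the 3′ end. Its paralogue Wwc1 (KIBRA itself) held 4 up to 4.24, all joined in 1 block 184 to 409 nt from the end. Nf2, which encodes the tumour suppressor merlin, held 12 peaks up to 4.01 on chromosome 11, and 0 of them were inside its last 5 kb. Of these, 11 lay 8351 to 10172 nt from it, and the other was 56454 nt away with the lowest −log10 p of the gene, 3.01. Frmd6 held 1 peak at 3.64. The angiomotin gene Amot, like Amotl1 and Amotl2, held 0.

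A further 12 genes were of the STRIPAK phosphatase complex, ubiquitin ligase adaptors and casein kinases, which inactivate STK3 and STK4 or degrade YAP1. Of these 12 genes, 5 held peaks (41.7%), beside 8.53% of all coding genes. Csnk1e, a casein kinase gene, held 10 within 1163 nt of its 3′ end, the strongest 5.62. Strn, which encodes the STRIPAK scaffold striatin, held 10 up to 4.28, spread from 461 to 4676 nt from the end. Its paralogue Strn4 held 1 at 3.24 and Strn3 held 0. Fbxw11, an adaptor of the ligase that targets phosphorylated YAP1, held 2 up to 3.42, and Mob4 held 1 at 3.11. The 24 peaks of this group were all inside the last 5 kb of their gene. Over all coding genes, those shorter than 5 kb included, it was 10651 of 12247 peaks, a shared peak being counted for each gene.

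The 4 vestigial-like genes, whose products compete with YAP1 for TEAD proteins, held 0 peaks. With 8.53% of all coding genes holding a peak, nothing is read from 0 in a list of 4. Of 20 genes known as targets of YAP1 and TEAD proteins, 3 held peaks (15%), beside the same 8.53%. Rbms3, which encodes an RNA-binding protein, held 34 of the 36 peaks of that list. They lay 99 to 4994 nt from the 3′ end of a gene of 1057168 nt on chromosome 9. Their log2 fold enrichment was 3.67 to 5.70 with a median of 4.46, so Rbms3 was the gene of these lists closest to Tead1 in median strength. Tgfb2 held 1 peak at 3.57 and Asap1 1 at 3.21. The widely used reporter targets Ccn1, Ccn2 and Ankrd1 held 0, and nothing is read from so few genes.

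**Figure D4:**
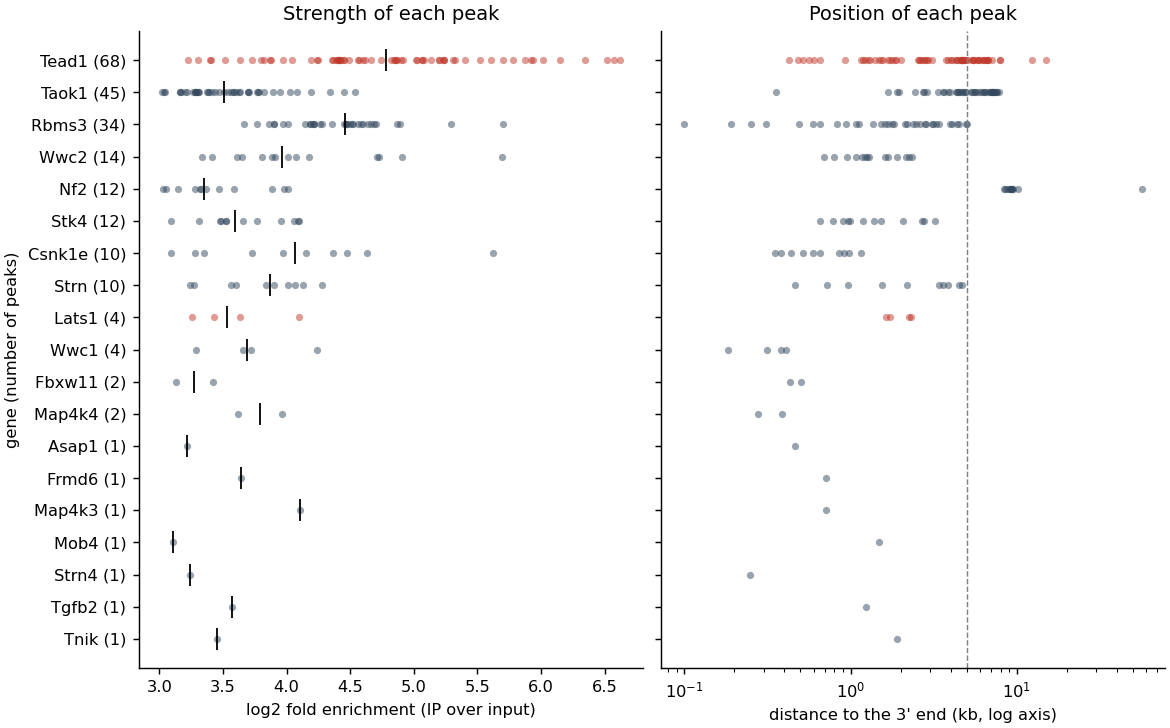
Log2 fold enrichment (left) and distance to the annotated 3′ end in kb (right, log axis) of every peak in the 19 Hippo pathway genes with a peak, ordered by number of peaks, given in brackets. Each point is a peak, red for Tead1 and Lats1 and dark for the other 17 genes, the black ticks are medians, and the dashed line marks 5 kb. Tead1 holds the strongest peaks, and Tead1, Taok1 and Nf2 are the genes with peaks beyond 5 kb.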

How the data were processed

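Per the labels' protocols, frozen N2A pellets were processed by a contract laboratory following published eCLIP, with 2 immunoprecipitate and 2 input libraries. One peak list of the whole series was used. Its name places it after an irreproducible discovery rate step, while the aligner, peak caller, thresholds and combination of replicates were not given in the sources used here. Builds named are mm10 and GRCm38.p6, from the submitters' processing notes. The deposited list has no header. The fourth column was read as the authors' −log10 p-value and the fifth as the authors' log2 fold enrichment per peak, from their ranges and the usual column order of eCLIP peak files.

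Start positions were converted to count from 1. Peaks were assigned by midpoint to RefSeq gene spans of GRCm38.p6, and a peak inside several genes counted for each, although no peak of the genes named in the Hippo lists was shared. Gene direction came from the RefSeq promoter table, or from the strand of the peaks where that table has no entry, as for Tead1. The assignment itself did not use strand. Of 1488 coding genes with peaks and a table strand, 1428 had all peaks on that strand. Among the 1300 of these with unshared peaks only, 1299 did. Counts over all coding genes thus include genes whose shared peaks lie on the other strand, such as Cd247. Ccn1 and Ccn2 were matched through older symbols. The genes most like Tead1 were the 5 with the smallest Kolmogorov-Smirnov distance, among genes of at least 15 kb with at least 20 unshared peaks. The 3 genes on either side of Tead1 by number of peaks were also named. Members and lists were chosen with earlier results of these data known. No test was run, since the list holds no value per library. Alternatives were a log2 fold enrichment of at least 4, a −log10 p of at least 5, joined peaks, any overlap of 1 nt, unshared peaks only, and windows of 2 and 10 kb. Python 3.11.15 with pandas 2.3.3 was used, and the assignment was tested on simulated data. No sequence was used here.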

Additional observations from a re-analysis of the deposited data

How the results depend on the processing

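Joining touching peaks lowered the count from 72 to 36 in the 10 genes and from 68 to 34 in Tead1, by construction. In Lats1 it left 2, and a log2 fold enrichment of at least 4 left 1. That minimum also lowered the other pathway genes with a peak from 17 to 9 and the share of all coding genes from 8.53% to 3.59%. The Tead1 share near the 3′ end was 30.9% in a window of 2 kb and 97.1% in one of 10 kb. The number of the 10 genes with a peak was 2 under each of the 5 alternatives run on it, and the rank of Tead1 by number was 3 to 5. The median log2 fold enrichment of Tead1 was 4.78 to 4.91. The 4.91 came from the minimum of 4, which removes the lowest peaks by construction. Joining, which keeps the highest value of each block, gave 4.89. No paired analysis was possible because the list gives no value per library, and no replicate could be left out for the same reason. Depth was not known.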
